A study of Danio rerio with 6 samples.

Results

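The genes described here are the kinase-annotated genes among the zebrafish transcripts that the study listed as responding to hydrogen peroxide (H2O2). They are the rows of the deposited table whose protein family field holds the word KINASE, less 6 rows left out by symbol (grk1b, eif2ak3, sgk1, pfkfb3, mylkb and epha2) and 1 uncharacterized model (BX005175.1). This rule found 28 of the 670 genes of the table, all of them protein coding. Messenger RNA of whole larvae of the Nacre strain was sequenced from 3 pools of untreated larvae and from 3 pools of larvae kept in 3 mM H2O2, with 1 library per pool. According to the sample labels the larvae were 3 days old and were treated for 2 hours. The methods of the study give instead 4 days and 3 hours, with Tricaine as anesthetic, and the files do not settle which holds. Nacre larvae lack most of their dark pigment cells, and this holds for both groups. Because whole larvae were sequenced, fewer cells of a type and less RNA per cell cannot be told apart.

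Kinases move a phosphate group from ATP to another molecule. Protein kinases place it on serine, threonine or tyrosine residues and so pass signals from receptors and stress sensors to the cytoskeleton, metabolism and transcription, while metabolic kinases act on sugars, lipids, inositols and vitamins. H2O2 is known to act on kinase signaling mainly at the level of proteins, by oxidizing cysteines of kinases and of the phosphatases that oppose them. The messenger level measured here is a separate quantity, and phosphorylation was not measured.

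Of the 28 genes, 19 carry an enzyme (EC) number of a kinase in the family field. These are 2 tyrosine kinases (mst1ra and styk1), 11 serine/threonine kinases, 1 dual specificity kinase (TESK1 (1 of 2)) and 5 metabolic kinases. A further 2, grk7a and fastkd3, are named as kinases or kinase domain proteins without an EC number. The remaining 7 are not kinases by this annotation but partners of kinases, that is, binding proteins, substrates, inhibitors or adaptors. The annotation of kinase activity in the gene ontology field was present in all 19 genes with an EC number and in 21 of the 28 genes in all. In the RefSeq gene table of the GRCz12tu assembly, all 28 were found by NCBI gene ID, and some stand there under other names, such as pdk2 (pdk2b), pfkfb4l (pfkfb4b), styk1 (styk1b), TESK1 (1 of 2) (tesk1b), dnajc3 (dnajc3a) and EPS8L1 (2 of 2) (eps8l1b).

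The value per library is log2(CPM + 1), where CPM is the read count scaled by library size, and a difference is the mean of the treated minus the mean of the untreated libraries on this scale. Every row had been kept by the authors for a p under 0.05 and a log2 CPM above 1 in these same libraries, so the direction and size of a difference are a description of selected genes and the tests on them are not independent evidence. Turned back into reads, the values were whole numbers within 0.02 in every library, with effective totals of 24727594 to 39766947 reads. The 28 genes were covered by a median of 675 to 984 reads per library, and the lowest was 24 reads, for CINP in H2O2 replicate 3. The spread between treated libraries had a median SD of 0.222, against 0.05 from counting alone, and it exceeded the counting error in 26 of the 28 genes. Between untreated libraries the median SD was lower, 0.101 against 0.048 from counting, and it exceeded the counting error in 21 genes. The tests below take a common spread for both groups. By the a or b ending of their symbols 7 genes (dok1a, sik2b, mst1ra, mapk8b, itpkcb, pank1a and grk7a) are 1 copy of a duplicated pair. The numbering in TESK1 (1 of 2) and EPS8L1 (2 of 2) marks copies as well, and the RefSeq names of pdk2, pfkfb4l, styk1 and dnajc3 also end in a or b. Reads that both copies of a pair share may have been divided between them, so the levels of all these genes are uncertain to that extent. The libraries of a group came from separate pools of larvae, so the p-values measure the spread between pools.

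The mean of the treated libraries was higher in 18 of the 28 genes and lower in 10. The differences ran from −0.65 to 0.66 with a median of 0.40, beside a median of 0.40 over the whole table, in which 61.8% of the genes were higher. The 2 groups did not overlap in 26 genes (92.9%, against 93.9% of the table), with the treated libraries on the higher side in 17 and on the lower side in 9 (58.4% and 35.5% of the table). The exceptions were pdk2 and grk7a. In limma with Benjamini-Hochberg adjustment over 24050 tests, 0 of the 28 genes passed an adjusted p of 0.05 (0% of the table, lowest adjusted p = 0.316 for dok1a and mknk1). At an unadjusted p under 0.05 from limma, 16 were higher and 10 lower (55.5% and 37.8% of the table, 93.3% together), and tab2 and pi4k2a were not past it. The shares without overlap and at an unadjusted p under 0.05 lie near those of the table. Without untreated replicate 1, 8 of the 28 genes were higher at an unadjusted p under 0.05, against 39.7% of the table. With adjustment over the table alone 23 of the 28 passed, against 92.1% of the table, which is not independent evidence.

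By class, all 5 metabolic kinases and 9 of the 11 serine/threonine kinases were higher, the exceptions being SIK1 and si:ch211-195b13.1 (61.8% of the table was higher). The rows left out by the rule are not in these counts. Among those of the serine/threonine class, eif2ak3 (−0.64) and mylkb (−0.42) were lower, and sgk1 (0.56) and BX005175.1 (0.47) were higher. The tyrosine kinases split, with 1 higher and 1 lower. The dual specificity kinase was lower, as were both genes named as kinases or kinase domain proteins without an EC number. Among the partners 3 were higher and 4 lower. The median difference was 0.43 in the serine/threonine kinases, 0.40 in the metabolic kinases and −0.43 in the partners, beside the 0.40 of the table. As selection by p left no difference of these genes near 0, a class median mostly follows which direction holds more genes. Differences between classes were not tested.

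**Figure D1:**
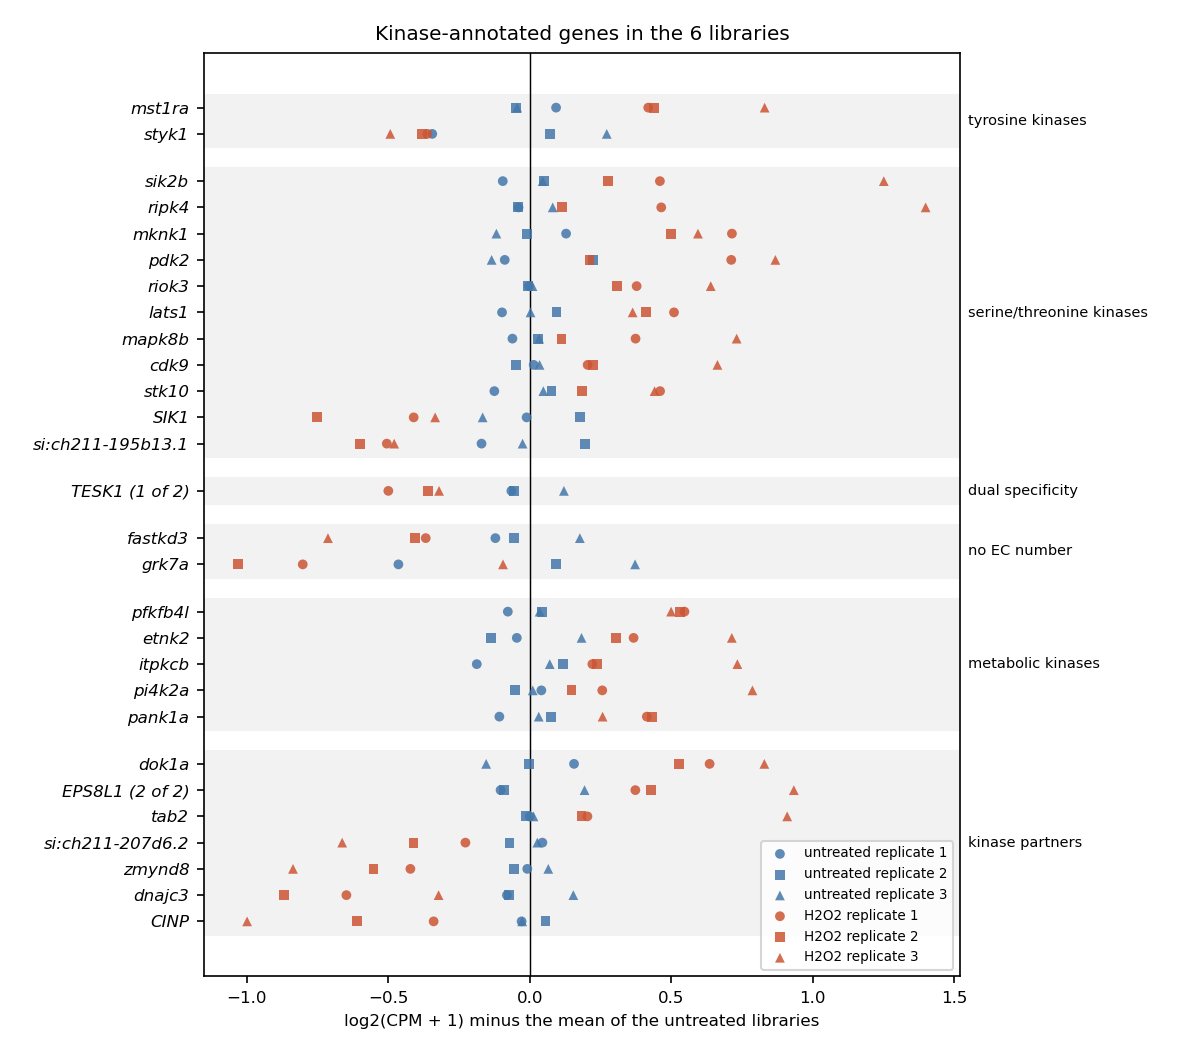
Each row is a kinase-annotated gene, grouped by class, and each point is a library, plotted as log2(CPM + 1) minus the mean of the untreated libraries (blue, untreated; orange, H2O2; circle, square and triangle, replicates 1, 2 and 3). The treated points of 18 genes average above 0 and those of 10 genes below, and in many higher genes, such as ripk4 and sik2b, H2O2 replicate 3 lies far from the other treated libraries.

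Stress-activated and growth factor MAP kinase signaling was represented by mapk8b, mknk1 and tab2. The gene mapk8b, on chromosome 12 from 2770278 to 2787246 of Zv9, encodes a c-Jun N-terminal kinase, the stress kinase that phosphorylates Jun proteins. Its values were 4.08, 4.17 and 4.17 in the untreated libraries and 4.51, 4.25 and 4.87 in the treated libraries. All treated libraries lay above the untreated ones, but H2O2 replicate 2 did so only slightly, and the difference of 0.41 (standard error 0.17) was 0.24 without H2O2 replicate 3. The gene tab2, on chromosome 20 from 1352818 to 1373605 of Zv9, encodes the ubiquitin-binding adaptor that brings the MAP kinase kinase kinase TAK1 to its activators. Its values were 5.02, 5.01 and 5.03 in the untreated libraries and 5.22, 5.20 and 5.93 in the treated libraries. The untreated libraries of tab2 were nearly identical and H2O2 replicate 3 stood far above the other treated libraries, and the difference of 0.43 (standard error 0.20) was 0.19 without it.

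The gene mknk1, on chromosome 11 from 13362177 to 13375264 of Zv9, encodes a MAP kinase-interacting kinase that phosphorylates the cap-binding translation factor. It stood at 3.62, 3.48 and 3.38 in the untreated libraries and 4.21, 3.99 and 4.09 in the treated libraries. Here the 3 treated libraries were close to each other and well above the untreated range, with a difference of 0.60 (standard error 0.13), an adjusted p of 0.316 from limma and a CPM ratio of treated to untreated means of 1.57. Without H2O2 replicate 3 the difference was 0.61.

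The salt-inducible kinases are relatives of AMP-activated kinase that hold the CREB coactivators in the cytoplasm, and in mammals Sik1 is itself induced by CREB. Both models of this family in the table carry the same family annotation, and they went opposite ways. The gene sik2b, on chromosome 15 from 20743413 to 20798365 of Zv9, stood at 5.45, 5.60 and 5.59 in the untreated libraries and 6.01, 5.82 and 6.80 in the treated libraries. Its treated libraries were all above the untreated ones, and H2O2 replicate 3 was the highest, with a difference of 0.66 (standard error 0.23) that was 0.37 without this library. The gene SIK1, on chromosome 9 from 9169115 to 9178227 of Zv9, stood at 6.27, 6.46 and 6.12 in the untreated libraries and 5.87, 5.53 and 5.95 in the treated libraries. All its treated libraries lay below the untreated ones, with a difference of −0.50 (standard error 0.15), or −0.58 without H2O2 replicate 3. Within a library, sik2b minus SIK1 was −0.82, −0.86 and −0.53 in the untreated and 0.13, 0.29 and 0.85 in the treated libraries. The groups could not overlap in this quantity, because they were already separate in each gene, in opposite directions. Its mean was 1.16 higher in the treated libraries. As transcript length cancels in this difference between groups but not in the levels, only the former compares the genes, and it was not tested because both genes had been selected on these libraries.

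The SGK kinases are activated downstream of phosphatidylinositol 3-kinase and regulate ion channels and cell survival, and they are named for their induction by serum and glucocorticoids. The model si:ch211-195b13.1, on chromosome 19 from 25368510 to 25374892 of Zv9, has the family annotation of a serum/glucocorticoid regulated kinase. Its values were 5.78, 6.15 and 5.93 in the untreated libraries and 5.45, 5.35 and 5.47 in the treated libraries. The treated libraries were tightly grouped below all untreated ones, with a difference of −0.53 (standard error 0.13) and a CPM ratio of untreated to treated means of 1.46. The gene sgk1, which has the same family annotation but is not counted among the 28, went the other way at 0.56 (standard error 0.24), or 0.25 without H2O2 replicate 3. Within a library, sgk1 minus si:ch211-195b13.1 was 0.32, 0.03 and 0.05 in the untreated and 0.94, 0.94 and 1.79 in the treated libraries. Here too an overlap was not possible, because the groups were already separate in each gene. The mean of this quantity was 1.09 higher in the treated libraries, which was not tested for the same reason as that of the salt-inducible kinases.

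**Figure D2:**
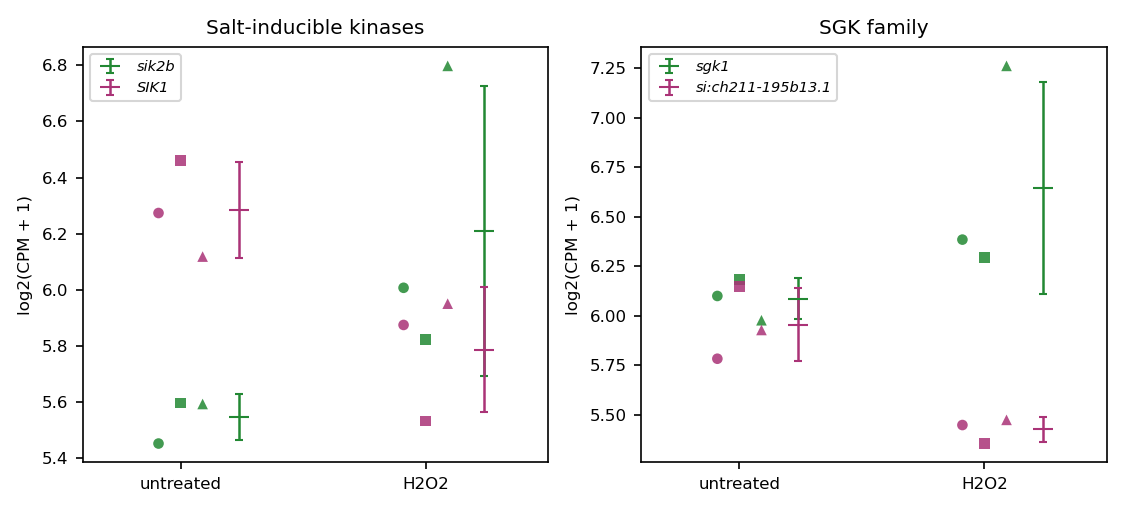
Log2(CPM + 1) in each library for the salt-inducible kinase genes sik2b and SIK1 (left) and for sgk1 and the SGK-type model si:ch211-195b13.1 (right), with circles, squares and triangles for replicates 1, 2 and 3 and bars for the mean ± SD (n = 3). In both panels the treated libraries of the green gene lie above its untreated ones and those of the purple gene below, and the vertical distance between the genes is not corrected for transcript length.

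Further serine/threonine kinases were higher in treated larvae. The gene ripk4, on chromosome 10 from 36139608 to 36176261 of Zv9, encodes a kinase with ankyrin repeats that is needed for epidermal differentiation in mice and humans. Its values were 3.36, 3.35 and 3.48 in the untreated libraries and 3.86, 3.51 and 4.80 in the treated libraries. H2O2 replicate 2 was barely above the highest untreated library while H2O2 replicate 3 was the farthest of all treated libraries from its untreated mean among the 28 genes, and the difference of 0.66 (standard error 0.29) was 0.29 without it. The gene lats1, on chromosome 20 from 1263770 to 1292178 of Zv9, encodes a kinase of the Hippo pathway that phosphorylates the coactivator Yap, and its values were 4.83, 5.03 and 4.93 in the untreated libraries and 5.44, 5.34 and 5.29 in the treated libraries. In contrast to ripk4, its treated libraries were close together and the difference of 0.43 (standard error 0.12) was 0.46 without H2O2 replicate 3. The family field of this model names LATS2, whereas its symbol is lats1.

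The gene cdk9, on chromosome 21 from 6057269 to 6070856 of Zv9, encodes the catalytic subunit of P-TEFb, which releases paused RNA polymerase II into elongation. It stood at 5.24, 5.17 and 5.26 in the untreated libraries and 5.43, 5.45 and 5.89 in the treated libraries. All treated libraries were above the untreated range, with a mean difference of 0.36 (standard error 0.15), or 0.21 without H2O2 replicate 3. The gene riok3, on chromosome 24 from 37736904 to 37750738 of Zv9, encodes an atypical kinase of the RIO family, and members of this family act in the maturation of small ribosomal subunits. Its values were 5.62, 5.61 and 5.63 in the untreated libraries and 6.00, 5.93 and 6.26 in the treated libraries. The untreated libraries were nearly identical and the treated ones were all higher, with a difference of 0.44 (standard error 0.13). The gene stk10, on chromosome 21 from 42307549 to 42354297 of Zv9, encodes a kinase that in mammals phosphorylates the proteins linking actin to the plasma membrane, and its difference was 0.36 (standard error 0.13) with no overlap of the groups.

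Among tyrosine kinases, mst1ra, on chromosome 6 from 42407140 to 42436417 of Zv9, encodes a receptor of the Met family whose mammalian counterpart binds macrophage stimulating protein and promotes epithelial cell movement. Its values were 2.91, 2.77 and 2.78 in the untreated libraries and 3.24, 3.26 and 3.65 in the treated libraries. The treated libraries were all above the untreated ones, with a difference of 0.56 (standard error 0.14), and the CPM ratio of treated to untreated means was 1.57. The gene styk1, on chromosome 16 from 34282843 to 34290739 of Zv9, encodes a membrane-bound protein with a tyrosine kinase domain. It stood at 3.383, 3.800 and 3.999 in the untreated libraries and 3.365, 3.347 and 3.234 in the treated libraries. Untreated replicate 1 lay barely above the highest treated library, so the groups were separated by very little. The difference of −0.41 (standard error 0.17) was −0.58 without untreated replicate 1 and −0.275 without untreated replicate 3. The dual specificity gene TESK1 (1 of 2), on chromosome 7 from 25695505 to 25738547 of Zv9, belongs to a family that phosphorylates the actin-severing protein cofilin in mammals, and its values were 3.28, 3.29 and 3.47 in the untreated libraries and 2.85, 2.99 and 3.03 in the treated libraries. The treated libraries were all lower, with a difference of −0.39 (standard error 0.12).

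The kinases of metabolism were all higher in treated larvae, as far as they were in the table. The gene pfkfb4l, on chromosome 6 from 39924470 to 39960287 of Zv9, encodes a bifunctional enzyme that makes and degrades a fructose bisphosphate that activates glycolytic phosphofructokinase. Its values were 5.98, 6.10 and 6.09 in the untreated libraries and 6.60, 6.58 and 6.55 in the treated libraries. The treated libraries were nearly identical and lay well above the untreated range, with a difference of 0.53 (standard error 0.11) and an adjusted p of 0.318 from limma.

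The mitochondrial kinase gene pdk2, on chromosome 19 from 6297800 to 6310636 of Zv9, carries an EC number of the protein serine/threonine kinases, and its product phosphorylates and inhibits the pyruvate dehydrogenase complex, which feeds pyruvate into the citric acid cycle. Its values were 4.48, 4.79 and 4.43 in the untreated libraries and 5.28, 4.78 and 5.43 in the treated libraries. H2O2 replicate 2 lay just below untreated replicate 2, so the groups overlap, although the mean difference was 0.60 (standard error 0.19). The gene pank1a, on chromosome 17 from 23384759 to 23407473 of Zv9, encodes pantothenate kinase, which controls the first step of coenzyme A synthesis, and its values were 4.75, 4.93 and 4.89 in the untreated libraries and 5.27, 5.29 and 5.12 in the treated libraries. The groups did not overlap, H2O2 replicate 3 was here the lowest treated library, and the difference was 0.37 (standard error 0.12).

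The other metabolic kinases act on lipids and inositols. The gene etnk2, on chromosome 11 from 39014482 to 39046271 of Zv9, encodes ethanolamine kinase, the entry to phosphatidylethanolamine synthesis, and had values of 2.90, 2.80 and 3.12 in the untreated libraries and 3.31, 3.25 and 3.66 in the treated libraries. The groups were separate, with a difference of 0.46 (standard error 0.15). The gene pi4k2a, on chromosome 1 from 55276763 to 55294966 of Zv9, encodes a phosphatidylinositol kinase of Golgi and endosome membranes, and itpkcb, on chromosome 18 from 33773645 to 33804790 of Zv9, encodes a kinase that converts the calcium-releasing messenger inositol trisphosphate. The values of pi4k2a were 4.84, 4.75 and 4.81 in the untreated libraries and 5.06, 4.95 and 5.59 in the treated libraries. Those of itpkcb were 5.17, 5.47 and 5.43 in the untreated libraries and 5.58, 5.59 and 6.09 in the treated libraries. In both genes H2O2 replicates 1 and 2 were close to each other and only slightly above the untreated range. Without H2O2 replicate 3 the difference of pi4k2a went from 0.40 (standard error 0.17) to 0.20, and that of itpkcb from 0.40 (standard error 0.17) to 0.23.

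Both genes named as kinases or kinase domain proteins without an EC number were lower. The gene grk7a, on chromosome 2 from 16357036 to 16364710 of Zv9, encodes the cone photoreceptor kinase that shuts off activated opsins. Its values were 5.38, 5.94 and 6.22 in the untreated libraries and 5.04, 4.81 and 5.75 in the treated libraries. The groups overlap, since H2O2 replicate 3 lay above untreated replicate 1. The difference was −0.64 (standard error 0.28), or −0.92 without H2O2 replicate 3. It was −0.448 without H2O2 replicate 2 and −0.456 without untreated replicate 3. Of 33 photoreceptor marker symbols 5 were in the table, grk7a itself, grk1b, rcvrna, pde6h and guca1c, and all 5 were lower, 4 of them at an unadjusted p under 0.05 (93.3% of the table in either direction, 37.8% as lower) and 0 past the adjusted threshold in limma. Their summed CPM, which includes grk7a itself, was 94.9 to 158 in the untreated and 70.4 to 97.9 in the treated libraries, so the groups overlap in it. The sum is therefore not separate from the value of grk7a, and its part in that value was not tested. The gene fastkd3, on chromosome 7 from 65552924 to 65562221 of Zv9, encodes a mitochondrial protein of a family that acts on mitochondrial RNA in humans. It stood at 2.73, 2.79 and 3.03 in the untreated libraries and 2.48, 2.44 and 2.14 in the treated libraries, and all treated libraries were below the untreated ones, with a difference of −0.50 (standard error 0.15), or −0.30 with 5 CPM added in place of 1.

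Of the 7 partners of kinases 3 were higher and 4 lower. The gene dok1a, on chromosome 1 from 41859317 to 41865833 of Zv9, encodes a docking protein that is phosphorylated by tyrosine kinases and restrains Ras signaling in mammals. Its values were 2.16, 2.00 and 1.85 in the untreated libraries and 2.64, 2.53 and 2.83 in the treated libraries. The groups were well apart, with a difference of 0.66 (standard error 0.14), an adjusted p of 0.316 from limma and a CPM ratio of treated to untreated means of 1.78. EPS8L1 (2 of 2), on chromosome 24 from 40187268 to 40208207 of Zv9, encodes a relative of an epidermal growth factor receptor substrate that regulates actin, and had values of 2.50, 2.51 and 2.80 in the untreated libraries and 2.98, 3.03 and 3.54 in the treated libraries. The groups did not overlap, and the difference was 0.58 (standard error 0.18). CINP, on chromosome 17 from 31681183 to 31682300 of Zv9, encodes a protein that binds cyclin-dependent kinase in replication and checkpoint control, and had values of 1.95, 2.03 and 1.95 in the untreated libraries and 1.64, 1.37 and 0.98 in the treated libraries. All treated libraries of CINP were lower, with a difference of −0.65 (standard error 0.17), on 24 to 64 reads in the treated and 91 to 123 reads in the untreated libraries. The CPM ratio of untreated to treated means was 1.89, which the added 1 compresses on the log2 scale. With 5 CPM added in place of 1, the difference was 0.37 in dok1a, 0.38 in EPS8L1 (2 of 2) and −0.28 in CINP.

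A further 3 partners were lower. The gene dnajc3, on chromosome 9 from 30517351 to 30531224 of Zv9, encodes a chaperone of the endoplasmic reticulum that also inhibits the kinases of translation initiation factor eIF2. Its values were 4.62, 4.62 and 4.85 in the untreated libraries and 4.05, 3.83 and 4.37 in the treated libraries. The difference was −0.61 (standard error 0.16), and every treated library lay below every untreated one. The gene zmynd8, on chromosome 11 from 18981352 to 19024769 of Zv9, encodes a chromatin reader first described as a protein kinase C binding protein, and had values of 4.11, 4.06 and 4.19 in the untreated libraries and 3.70, 3.57 and 3.28 in the treated libraries. Its groups were well separated, with a difference of −0.60 (standard error 0.14). The model si:ch211-207d6.2, on chromosome 2 from 29557670 to 29608149 of Zv9, is annotated as an inhibitor of Src kinase signaling, and its difference was −0.43 (standard error 0.14) without overlap of the groups.

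The treated libraries did not weigh equally. Among the treated libraries, H2O2 replicate 3 had the largest distance to the untreated mean for 13 of the 18 higher genes (72.2%, against 76.3% of the higher genes of the table) and in 5 of the 10 lower genes (50%, against 57.4%). For the higher kinase-annotated genes the median distance from the untreated mean was 0.42 in H2O2 replicate 1, 0.29 in replicate 2 and 0.73 in replicate 3. Over the higher genes of the table it was 0.42, 0.34 and 0.72 in the same order. Without H2O2 replicate 3 the median difference over the 28 genes was 0.24. With 10 of the 28 genes lower, this median falls among the smaller differences of the higher genes. It was not computed over the table, so it is not read as the typical loss. In cdk9, itpkcb, mapk8b, pi4k2a, ripk4, sik2b and tab2 the difference then shrank by more than 1.5 times, and leaving out any other library moved none of the 28 differences by that much. In mknk1, pfkfb4l, lats1 and pank1a, in contrast, the difference was as large or larger without H2O2 replicate 3, and so it was in 5 of the 10 lower genes (TESK1 (1 of 2), SIK1, si:ch211-195b13.1, dnajc3 and grk7a). The median share of the difference kept without this library was 74.5% in the higher and 97.4% in the lower genes, against 79.4% and 90% in the table. The genes that shrank or held were not counted over the table, so nothing particular to those named is read from these counts. No gene of the 28 changed its direction when a library was left out, which in the 26 genes without overlap was fixed in advance. H2O2 replicate 3 also had the lowest effective total of the 6 libraries, and the leukocyte markers in the table, mmp9 and mmp13a (2 of 12 symbols), summed to 14.01 to 18.52 CPM in the untreated and 36.1 to 136 CPM in the treated libraries, the highest being H2O2 replicate 3. Both encode matrix metalloproteinases that other cells can also express, and symbols of that list such as mpx, lyz and mpeg1 were not among the rows of the table. The erythrocyte markers hbae1 and slc4a1a (2 of 8 symbols) summed to 430 to 548 CPM in the untreated and 504 to 1201 CPM in the treated libraries, again highest in H2O2 replicate 3. The difference of hbae1 was 0.58 (standard error 0.32) and 0.17 without that library, and that of the liver marker cp (1 of 9 symbols) was 0.55 (standard error 0.22) and 0.27 without it. Their part in the values of this library was not tested.

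**Figure D3:**
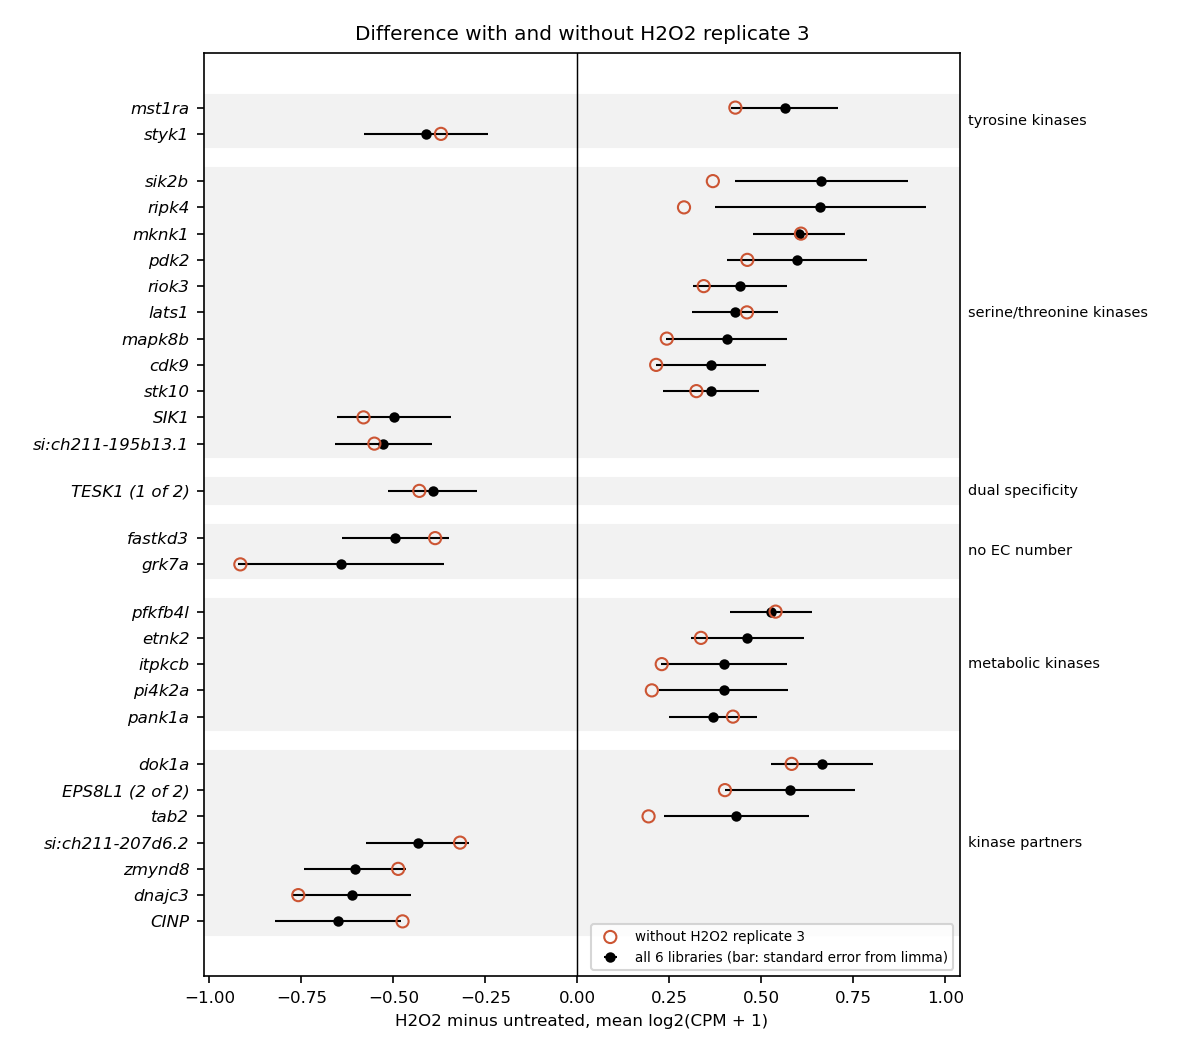
Difference of mean log2(CPM + 1), H2O2 minus untreated, for each kinase-annotated gene over all 6 libraries (black, bars are standard errors from limma) and without H2O2 replicate 3 (open orange circles). The circle lies far to the left of the point in ripk4 (0.66 and 0.29) and sik2b (0.66 and 0.37), and on the point in mknk1 (0.60 and 0.61).

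The pathways around these kinases were followed with lists of textbook members, matched by symbol to the table, in which genes that did not pass the selection of the authors are not seen. The counts below stand beside a table in which 61.8% of the genes were higher and 93.3% were at an unadjusted p under 0.05, and nothing particular to a list is read from them. Of 68 MAP kinase pathway symbols 10 were in the table, 8 higher and 2 lower, with 6 and 2 at an unadjusted p under 0.05 and 0 past the adjusted threshold in limma. Its median difference was 0.52, beside the 0.40 of the table. The 3 kinase-annotated genes of this list, mapk8b, mknk1 and tab2, were all higher. The largest differences belonged to the AP-1 subunit junbb at 0.91 (standard error 0.38) and to junba at 0.84 (standard error 0.38), which stood at 0.46 and 0.38 without H2O2 replicate 3. Another Jun gene of the list, jund, went the other way at −0.77 (standard error 0.19), or −0.56 without that library. None of 31 symbols of MAP kinase phosphatases was matched in the table. The paper names dusp10, which is among these symbols, as a lower gene of its H2O2 network, so matching by symbol may have missed a gene.

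Of 62 symbols around LKB1, AMP-activated kinase, the salt-inducible kinases and CREB, 7 were in the table, 4 higher and 3 lower, all at an unadjusted p under 0.05 (93.3% of the table) and 0 past the adjusted threshold in limma, with a median difference of 0.42 beside the 0.40 of the table. SIK1 stood on the lower side with npas4a at −2.05 (standard error 0.26), an immediate early gene of neurons. The activity of CREB was not measured, and its part in these values was not tested. On the higher side with sik2b was pck1 at 0.97 (standard error 0.23), which encodes an enzyme of gluconeogenesis. Of 59 symbols of insulin, phosphatidylinositol 3-kinase, mTOR and SGK signaling, 7 were in the table and all 7 were higher (61.8% of the table), 6 of them at an unadjusted p under 0.05 (93.3% of the table) and 0 past the adjusted threshold in limma. Their median difference was 0.42, again beside 0.40. The largest of these was igfbp1a, an insulin-like growth factor binding protein, at 1.23 (standard error 0.17). The SGK-type model si:ch211-195b13.1 is not among the symbols of this list and so is outside its count, and it was lower at −0.53. That all 7 were higher therefore holds for the matched symbols alone.

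Of 67 symbols of glycolysis and pyruvate dehydrogenase control 7 were in the table, 6 higher, pdk2 and pfkfb4l among them, and 1 lower. All 7 were at an unadjusted p under 0.05 (93.3% of the table) and 0 past the adjusted threshold in limma, and the median difference was 0.53 beside the 0.40 of the table. The higher genes included pck1, the gluconeogenesis gene at 0.97 (standard error 0.23), with g6pca.1 and g6pca.2. These genes are also counted in the list around LKB1 above, so the lists are not separate. The lower gene was cs, citrate synthase, at −2.98 (standard error 0.91), which was listed at 0 in H2O2 replicate 3 and stood at −1.69 without that library. Of 30 symbols of P-TEFb and the RNA polymerase II kinases, cdk9 and the cyclin gene ccnt2b at 0.42 (standard error 0.11) were in the table, both higher. Of 40 Hippo pathway symbols only lats1 and cyr61, a target of Yap, were found, and cyr61 was lower at −1.08 (standard error 0.19). Of 61 symbols of phosphoinositide and inositol phosphate metabolism 4 were found, the kinase genes pi4k2a and itpkcb as higher, and as lower the lipid phosphatase gene inpp5d at −0.41 (standard error 0.12) and the phospholipase gene plcg2 at −0.45 (standard error 0.12). In these last 3 lists all genes but pi4k2a were at an unadjusted p under 0.05, and 0 passed the adjusted threshold in limma. The median differences were 0.39, −0.33 and −0.005, of which −0.33 and −0.005 are midpoints between genes that went opposite ways.

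**Figure D4:**
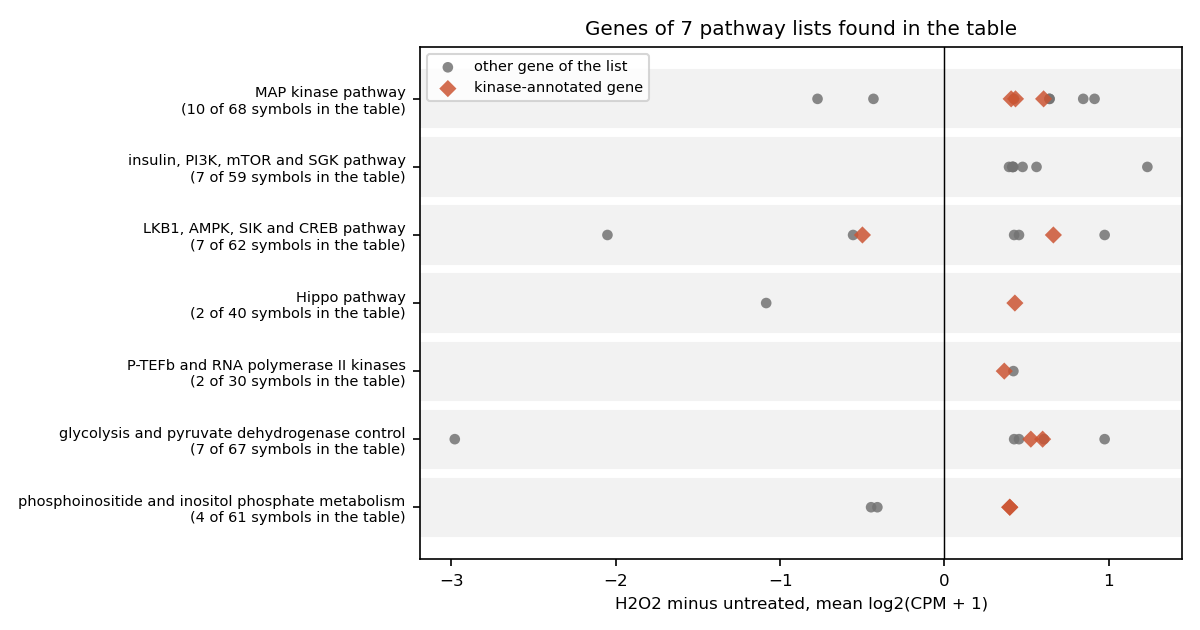
Difference of mean log2(CPM + 1), H2O2 minus untreated, for each gene of 7 pathway lists that was found in the deposited table, with kinase-annotated genes as orange diamonds and other genes as grey circles. All 7 genes matched by symbol to the insulin, PI3K, mTOR and SGK list lie above 0. The SGK-type model si:ch211-195b13.1 (−0.53) is not in that list and is not drawn. The salt-inducible kinases lie on opposite sides, at 0.66 and −0.50.

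On Zv9 the 28 genes were spread over 16 chromosomes. The closest pair was lats1 and tab2 on chromosome 20, which are transcribed away from each other with a gap of 60.6 kb between their starts, and both were higher, at 0.43 each. H2O2 replicate 3 was the lowest treated library in lats1 and the highest in tab2, so that the neighbours did not share their pattern across the treated libraries. The next closest pairs, riok3 with EPS8L1 (2 of 2) and pfkfb4l with mst1ra, were 2436.5 kb and 2446.9 kb apart.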

How the data were processed

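Messenger RNA of 3 untreated and 3 H2O2-treated pools of whole larvae was sequenced as paired ends. Per the paper's methods and the submitters' processing notes, the authors trimmed reads, estimated expression with RSEM against Ensembl transcripts of Zv9, and compared the groups with edgeR; the notes also name FastQC, TopHat, Bowtie2 (2.0.9), Cufflinks and Cuffdiff, with no role given here. The deposited table holds log2 values per library, which are log2(CPM + 1), for the 670 genes that the authors kept at p under 0.05 and log2 CPM above 1. It also holds their fold changes, p-values and false discovery rates, which were not used. The deposited annotation fields (other) gave family, symbol and Zv9 position.

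Differences were fitted with limma 3.58.1 in R 4.3.3 over all 670 genes, two-sided, with empirical Bayes moderation (prior degrees of freedom 4.4) and no covariate. Benjamini-Hochberg adjustment took 24050 tests. This is the number of expressed genes that follows from counts in the paper's text, since genes outside the table were not analysed here. Each unseen gene thus counts as having a larger p, so the adjusted values are upper bounds for the p-values of this fit. The moderation was also fitted on the selected genes alone. The test was tried on simulated data first. Reads were recovered from the steps of the CPM values (effective totals of 24727594 to 39766947).

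The genes, the pathway and marker lists and the tests were chosen with earlier results of these data known. Values per library were to be given for the 3 largest differences in each direction of each class, for families with members on both sides and for mapk8b, cdk9, lats1, pdk2, grk7a and sik2b. From each pathway list only the 2 largest differences beside the kinase-annotated genes were to be named. The values of riok3, pi4k2a, pank1a and jund were added after they were seen, as were the names g6pca.1 and g6pca.2. Marker lists of epidermis (16 symbols), intestine (9), muscle (11) and neurons (8) had 0 genes in the table, liver 1 of 9 (cp) and erythrocytes 2 of 8 (hbae1 and slc4a1a), all 3 of them higher. The 13 alternatives were 2 pseudocounts (0.1 and 5), a minimum mean log2 value of 3, a mean-variance trend, robust moderation, a replicate block, adjustment over the table alone and leaving out each of the 6 libraries. No sequences were analysed here.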

Additional observations from a re-analysis of the deposited data

How the results depend on the processing

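The kinase-annotated genes kept their direction in every alternative that was run, but for most genes this could not have come out otherwise. The filter, trend, robust moderation, block and adjustment leave each difference unchanged. Where the groups do not overlap, leaving out a library or adding another CPM cannot change the sign. Against 16 higher and 10 lower genes at an unadjusted p under 0.05 in limma, 0 past the adjusted threshold, 26 without overlap and a median difference of 0.397, adjustment over the deposited table alone gave 23 past the adjusted threshold (92.1% of the table), because fewer tests were counted in a table already selected by p on these libraries. Leaving out 1 library gave 8 to 18 higher genes, 7 to 10 lower genes, 0 past the adjusted threshold, 26 to 27 without overlap and a median of 0.236 to 0.464. The lowest count of higher genes (8, against 39.7% of the table) came without untreated replicate 1 and the lowest median (0.236) without H2O2 replicate 3, and the cause was not tested. Deviations of libraries with the same replicate number correlated at −0.001, −0.105 and 0.000. As the genes had been selected on these libraries without pairing, this cannot decide whether the numbers pair the samples. A replicate block gave the same 16 higher and 10 lower genes by count and 0 past the adjusted threshold. The 26 without overlap and the median of 0.397 could not change, since the block leaves the values and, in this balanced design, the differences as they were. Adding 0.1 or 5 CPM in place of 1 gave 14 or 16 higher and 9 lower genes. Requiring a mean log2 value of at least 3 left 24 of the genes in the fit. Genes outside the selected table were not seen, and counts under 100 reads, as in CINP, limit precision.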
